A study of Arabidopsis thaliana with 8 samples.

Results

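The ATG8 genes of Arabidopsis thaliana and ATG4B, the gene of a protease that matures ATG8 proteins with a C-terminal tail, were followed across 8 single-colour Affymetrix arrays. The 10 genes were chosen by name in the platform's table of probe genes, and each was found with exactly 1 probe set, so that they make up 10 of 22746 probe sets that are not controls. They are ATG8A (AT4G21980, listed as APG8A), ATG8B (AT4G04620), ATG8C (AT1G62040), ATG8D (AT2G05630), ATG8E (AT2G45170), ATG8F (AT4G16520), ATG8G (AT3G60640), ATG8H (AT3G06420), ATG8I (AT3G15580, listed as APG8H) and ATG4B (listed under its locus, AT3G59950). All 10 passed the filter on low values described below and were tested.

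The arrays came from 4 groups of 2, all in the Col-0 ecotype, in a study that looked for genes responding early to ORE1, a factor of the NAC family and a positive regulator of senescence in leaves. Whole seedlings, 2 weeks old, of the line ORE1-IOE, in which estradiol induces ORE1, were shaken in liquid medium and collected 2 h after estradiol was added to 10 µM, or after 0.1% ethanol in the mock group, whose seedlings carry the same construct. Mesophyll cell protoplasts, prepared from soil-grown plants 5 weeks old, either expressed 35S:ORE1 transiently for 6 h, ORE1 being driven by the constitutive 35S promoter, or were labelled WT. For the WT protoplasts no harvest time and no mock transfection is given in the sources used here, so ORE1, transfection and time in culture cannot be told apart in the protoplast comparison. It is likewise not given how many seedlings or preparations an array stands for, or how many ORE1-IOE lines were used. The p-values therefore measure the spread between arrays, which may be technical, and the small number of arrays limits the precision.

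ATG8 is a small ubiquitin-like protein. The cysteine protease ATG4 trims its C-terminus to expose a glycine, and the enzymes ATG7 and ATG3, helped by the ATG12-ATG5-ATG16 complex, then couple that glycine to the membrane lipid phosphatidylethanolamine. Lipid-bound ATG8 coats the growing autophagosome, where it holds cargo receptors, and ATG4 can also release it again. ATG8H and ATG8I are the divergent branch of the plant family, whose products end at or near the glycine and lack the tail that ATG4 removes. In leaves, autophagy recycles proteins and chloroplast material during starvation and senescence, and autophagy mutants of Arabidopsis senesce early. The kinase complex of ATG1, ATG13, ATG11 and ATG101 starts the process.

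All levels below are the deposited log2 values. The systems lie on different scales, with array medians of 3.34 to 3.54 in protoplasts and 6.71 to 6.79 in seedlings, and on each protoplast array 39.8% to 41.6% of probe sets sat at a floor, defined as within 0.1 of that array's lowest value. None of the 10 genes was at that floor, their lowest value on a protoplast array being 7.23 (ATG8G). Their lowest value on a seedling array was 6.14 (ATG8E), and no measure of background is used here for the seedling arrays, on 3 of which ATG8E lay below the array median. The same-numbered protoplast arrays also held exactly equal values for 13464 (number 1) and 11101 (number 2) probe sets, against 20 and 8 in seedlings, so the array number may stand for a processing batch in protoplasts and values with the number as a block are given there. No member was among those equal values. Of 12 green tissue genes taken as markers, 4 have a listed probe set (LHCB4.1, LHCB4.2, PSAN and RCA). Each was lower in rank on all protoplast arrays than on all seedling arrays, and PSAN, a photosystem I subunit gene, lay at the floor on 2 of the 4. The guard cell genes FAMA and GC1 and the root hair genes EXPA7 and EXPA18 were at the floor on all 4 protoplast arrays, while no vascular or epidermal marker is listed. On the seedling arrays the root hair genes were low too, at 5.08 to 5.64, below the array medians. The guard cell genes lay at 6.77 to 10.44 there.

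Position within an array was used to set protoplasts beside seedlings, as the percentile of a gene's value among all 22746 probe sets of that array. All 10 genes stood at a higher percentile on every protoplast array than on every seedling array, which was true of 39.4% of all probe sets. That share takes in the probe sets at the protoplast floor, and none was computed for probe sets at the members' levels. The position was not particular to these genes. Of the other autophagy genes described below, ATG1A, ATG1B, ATG1C, ATG3, ATG13B, ATG16 and ATG101 also stood higher on every protoplast array. RAPTOR1B overlapped and ATG1T stood lower. The median percentile of the 10 was 93.7 to 95.3 on the protoplast arrays and 70.7 to 73.7 on the seedling arrays. Tissue, plant age and growth differ between the systems, array processing may differ too, and these cannot be told apart. Probe sets also differ in how well they bind, so the order of the paralogs is not an order of transcript abundance.

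ATG8E showed the widest gap. It stood at the 93.8 and 93.4 percentiles in WT protoplasts and at 95.1 and 93.4 with 35S:ORE1, but at 41.4 and 48.1 in mock seedlings and 44.5 and 56.2 with estradiol. ATG8H was at 94.0 on both WT protoplast arrays and at 60.1 and 67.6 in mock seedlings, and ATG8F at 96.9 on both WT arrays and at 69.8 and 66.2 in mock seedlings. These 3 genes were thus near the top of the protoplast arrays and in the middle range of the seedling arrays.

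The narrowest gaps were those of ATG8C and ATG8I. ATG8C, at 84.9 and 86.8 in WT protoplasts, was at 82.0 and 83.8 in mock seedlings, a difference of group means of 2.91 percentile points. ATG8I, at 97.1 and 96.5 in WT protoplasts and 92.0 and 92.7 in mock seedlings, was the 1 member above the 90th percentile on all seedling arrays, while 6 of the 10 were so on all protoplast arrays. ATG8G, at 73.8 and 75.6, and ATG4B, at 79.2 and 74.8, had the lowest percentiles of the 10 in WT protoplasts, with 58.8 and 62.5 for ATG8G and 66.0 and 66.6 for ATG4B in mock seedlings. ATG8A, ATG8B and ATG8D lay between these, with means of 97.3, 94.4 and 90.6 in WT protoplasts and 84.1, 86.6 and 73.3 in mock seedlings.

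**Figure D1:**
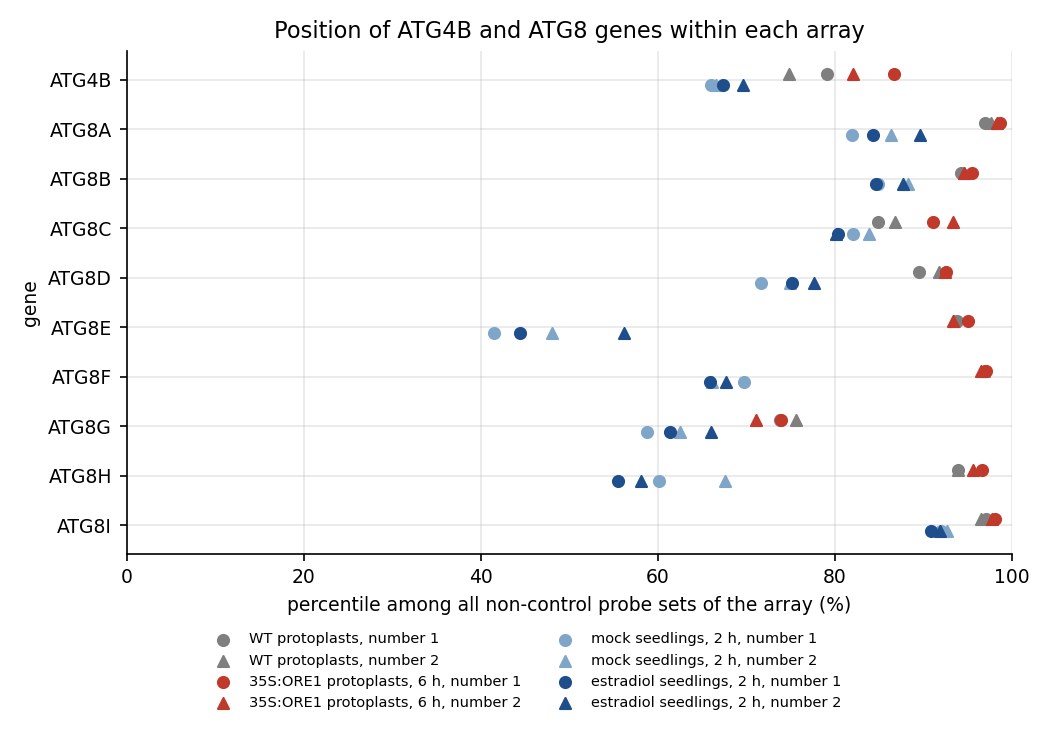
Percentile of each gene's value among the 22746 probe sets that are not controls on the same array, for ATG4B and the ATG8 genes on all 8 arrays. Colours mark the groups and symbols the array numbers. All protoplast points lie to the right of all seedling points of the same gene, by most for ATG8E (93.4 to 95.1 against 41.4 to 56.2) and by little for ATG8C.

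The comparison of 35S:ORE1 with WT protoplasts asked what differed in protoplasts that expressed ORE1 without estradiol. Transfection and time in culture cannot be told apart from ORE1 there. The group mean was higher with 35S:ORE1 for 8 of the 10 genes and lower for ATG8F and ATG8G. The median difference was 0.44 on the log2 scale, against 0 over all tested probe sets. Of those, 31.4% had a higher mean and 29.9% had exactly equal means, which hold down the share that is higher. None of the 10 passed the test over all probe sets (limma, Benjamini-Hochberg adjusted p under 0.05), where 3.77% of 17388 passed in either direction, while 4 had an unadjusted p under 0.05, as had 12.2% of the tested probe sets. With the array number as a block 3 of them rose, ATG4B, ATG8C and ATG8I, where 4.72% of all tested probe sets were called higher. For 8 of the 10 both 35S:ORE1 arrays lay above both WT arrays. The same held for 10.8% of all tested probe sets, and for 17.5% of the 5973 whose mean over the protoplast arrays was at least that of the lowest member, 7.49, a cut chosen after the data were seen. Among these 5973, 42.2% had a higher 35S:ORE1 mean, and the median difference was -0.024. Of the green tissue genes, none of which passed, LHCB4.1, LHCB4.2 and RCA were lower on both 35S:ORE1 arrays than on both WT arrays. The share of all tested probe sets that were lower in this way is not given here. The log2 values of the 4 green tissue genes, summed, were 23.2 and 23.3 with 35S:ORE1 and 24.3 and 25.9 in WT. Their part in the differences of the ATG8 genes was not tested. In such bulk samples a smaller share of responding cells and less RNA per cell cannot be told apart.

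ATG4B, the protease gene, had values of 9.15 and 8.60 with 35S:ORE1 (arrays 1 and 2) and of 8.13 and 7.64 in WT. Both 35S:ORE1 arrays were above both WT arrays, and the gap was nearly the same between the arrays numbered 1 and those numbered 2, 1.01 and 0.96. The difference of means was 0.99 ± 0.23 (SE, n = 2 arrays per group), or 1.98-fold, with a limma adjusted p of 0.0956, and of 0.00912 with the array number as a block. Among the alternatives that leave out no single array, only the block gave a pass. The limma adjusted p was 0.151 after median centring and 0.480 when protoplasts were fitted without the seedlings. Array 1 was higher than array 2 in both groups, which is the part of the spread that the block takes up.

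Among the branch of ATG8A to ATG8D, ATG8C differed most. Its values were 9.88 and 10.54 with 35S:ORE1 and 8.89 and 9.23 in WT, so the groups did not overlap and the within-pair differences were 0.99 and 1.30. The mean was higher by 1.15 ± 0.24 (SE), a fold of 2.21, with a limma adjusted p of 0.0638 and of 0.0224 with the block. ATG8C also passed after quantile normalization, at the stricter filter, with a trend in the spread and without 35S:ORE1 array 1 (adjusted p 0.0230 to 0.0493), and its adjusted p was 0.0845 to 0.406 under the 10 alternatives in which it did not pass.

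ATG8A gave 12.42 and 12.48 with 35S:ORE1 and 11.51 and 12.07 in WT, a difference of 0.65 ± 0.28 (SE) whose adjusted p was 0.446. Here the 35S:ORE1 arrays lay close together and WT array 1 was the low point, so that the 2 pairs gave 0.90 and 0.40. ATG8D had the same shape, with 10.21 and 10.31 against 9.58 and 10.15, or 0.40 ± 0.21 (SE), and within-pair differences of 0.63 and 0.16. ATG8B was at 11.00 and 10.96 with 35S:ORE1 and at 10.63 and 10.88 in WT, a difference of 0.22 ± 0.18 (SE). Without WT array 1 the differences of ATG8A, ATG8D and ATG8B were 0.37, 0.11 and 0.096, and that of ATG8B was 0.046 after median centring.

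In the branch of ATG8E, ATG8F and ATG8G no gene passed, and the differences of means had both signs. ATG8E, at 10.88 and 10.55 with 35S:ORE1 and 10.52 and 10.55 in WT, differed by 0.36 in pair 1 and by 0.0021 in pair 2. ATG8F was at 11.53 and 11.54 with 35S:ORE1 and 11.51 and 11.74 in WT, and ATG8G at 7.52 and 7.23 against 7.49 and 7.74. For these last 2 genes the arrays of the groups overlapped, with differences of -0.09 ± 0.14 (SE) and -0.24 ± 0.18 (SE). The adjusted p was 0.956 for ATG8G and 1 for ATG8E and ATG8F.

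Both genes of the divergent branch were higher in mean with 35S:ORE1. ATG8H gave 11.35 and 11.20 against 10.55 and 10.69 in WT, a difference of 0.66 ± 0.18 (SE, adjusted p = 0.148, and 0.0853 with the block). ATG8I gave 12.01 and 12.13 against 11.60 and 11.57, a difference of 0.49 ± 0.12 (SE), or 1.40-fold, with an adjusted p of 0.115, and of 0.0401 with the block. For ATG8I too, the block alone gave a pass among the alternatives that leave out no single array. Its limma adjusted p was 0.357 after median centring and 0.148 when protoplasts were fitted without the seedlings. Replicates were close for both genes, with SDs of 0.02 to 0.11 on the log2 scale, and neither group's arrays overlapped with the other's.

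**Figure D2:**
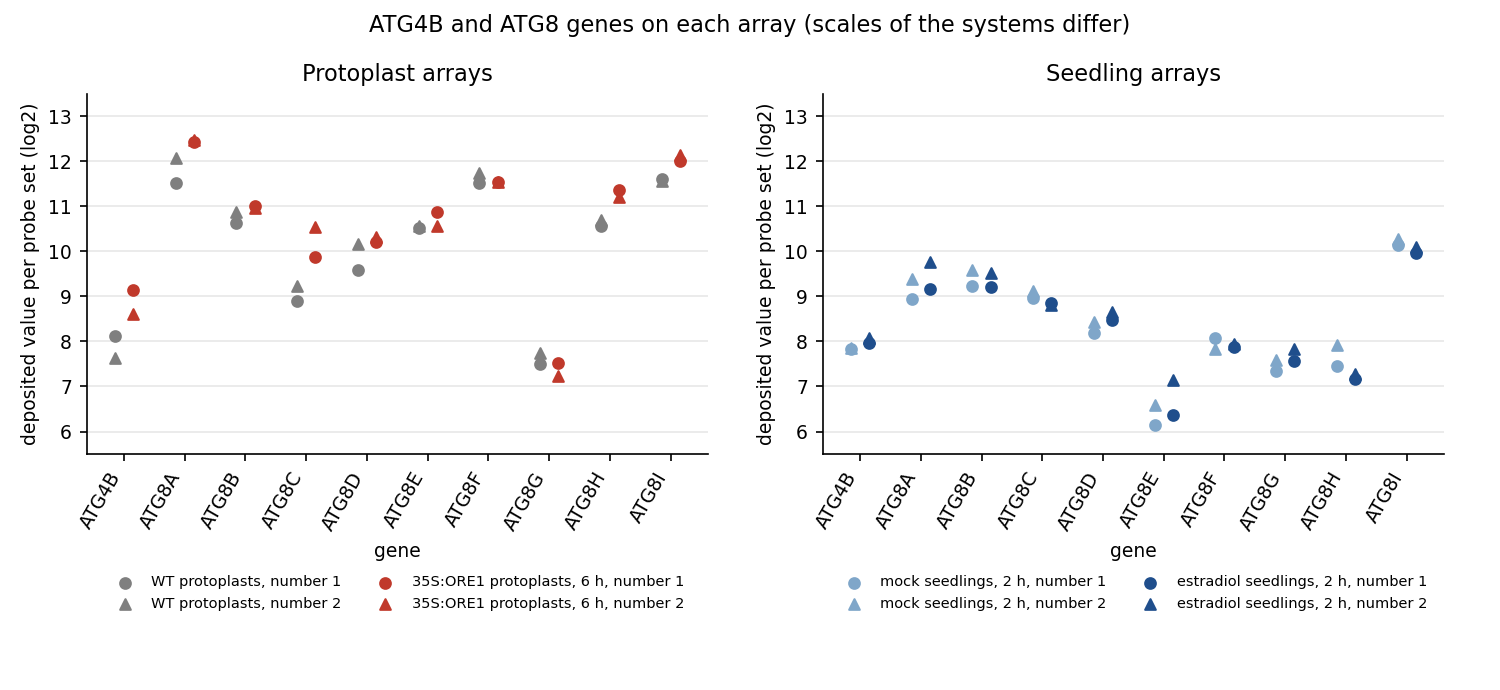
Deposited log2 values of ATG4B and the ATG8 genes on each of the 8 arrays, with protoplasts on the left and seedlings on the right. Colours mark the groups and symbols the array numbers. In protoplasts the 35S:ORE1 points lie above both WT points for all genes but ATG8F and ATG8G. The panels lie on different scales, and the processing of the arrays may differ between them.

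The seedling comparison asked what differed in whole plants of the ORE1-IOE line after 2 h of estradiol. No group without the construct received estradiol, so ORE1 and estradiol itself cannot be told apart. The values of ORE1 itself are not given here. The differences were small and of both signs, 5 genes having a higher and 5 a lower mean, with a median of 0.06 on the log2 scale against 0.02 over all tested probe sets. None of the 10 passed (limma adjusted p = 1 for each), where 0.00575% of the tested probe sets, a single one, did, and none passed with the array number as a block (adjusted p 0.253 to 0.871). The arrays of the groups did not overlap for 5 genes. ATG4B and ATG8D were higher with estradiol on both arrays, which held for 18.6% of all tested probe sets, and ATG8C, ATG8H and ATG8I were lower, which held for 13.9%.

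ATG8H had the lowest difference. It stood at 7.17 and 7.28 with estradiol and at 7.44 and 7.92 with mock treatment, lower by 0.27 in pair 1 and by 0.64 in pair 2. The difference of means was -0.45 ± 0.18 (SE), and it was the 1 member with an unadjusted p under 0.05 in seedlings, where 4.13% of the tested probe sets had one. It was -0.22 without mock array 2 and -0.69 without mock array 1. ATG8C, at 8.84 and 8.82 against 8.96 and 9.13, differed by -0.21 ± 0.24 (SE). ATG8I, at 9.96 and 10.10 against 10.13 and 10.28, differed by -0.18 ± 0.12 (SE), and by almost the same amount in both pairs.

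ATG8E had the highest difference, 0.41 ± 0.29 (SE), from 6.38 and 7.15 with estradiol and 6.14 and 6.58 with mock treatment. Its groups overlapped, because array 2 was higher than array 1 in both. ATG8A followed the same pattern, with 9.17 and 9.76 against 8.95 and 9.39 and a difference of 0.30 ± 0.28 (SE). Without estradiol array 2 the difference was 0.019 for ATG8E and 0.0028 for ATG8A, and without estradiol array 1 it was 0.80 and 0.60. In both genes the spread between the arrays of a group was as large as the difference between groups.

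The differences of the other 5 genes lay between -0.05 and 0.25. ATG8D was at 8.48 and 8.64 with estradiol and 8.19 and 8.43 with mock treatment, and ATG8G at 7.57 and 7.83 against 7.35 and 7.59, with differences of 0.25 ± 0.21 (SE) and 0.22 ± 0.18 (SE). ATG4B, at 7.95 and 8.07 against 7.83 and 7.85, differed by 0.17 ± 0.23 (SE). ATG8B (9.21 and 9.52 against 9.23 and 9.59) and ATG8F (7.87 and 7.94 against 8.07 and 7.83) differed by -0.05 and -0.04.

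The change itself was then compared between the systems, as seedling change minus protoplast change. Tissue, plant age, time (2 h against 6 h) and the way ORE1 was expressed differ between the systems. The value scales differ too, so a log2 change need not have the same size in both. These cannot be told apart in this comparison. None of the 10 passed this test (1.62% of the tested probe sets did), and with the block ATG4B passed alone, where 2.80% did. Its difference of changes was -0.81 ± 0.33 (SE, adjusted p = 0.558, and 0.0444 with the block). ATG8C had the lowest value, -1.36 ± 0.34 (SE, adjusted p = 0.187, and 0.0520 with the block), while ATG8H had -1.11 ± 0.26 (SE, adjusted p = 0.153) and ATG8I -0.67 ± 0.17 (SE, adjusted p = 0.218). For ATG8C, ATG8H and ATG8I both pairs were higher in protoplasts and both lower in seedlings, but the test of the difference did not pass for them with or without the block. Of all tested probe sets, 27.2% moved down in both seedling pairs. The share with both parts of the pattern was not computed. For the remaining 6 the difference of changes was -0.35 (ATG8A), -0.26 (ATG8B), -0.15 (ATG8D), 0.04 (ATG8F), 0.23 (ATG8E) and 0.46 (ATG8G), with SEs of 0.20 to 0.41.

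**Figure D3:**
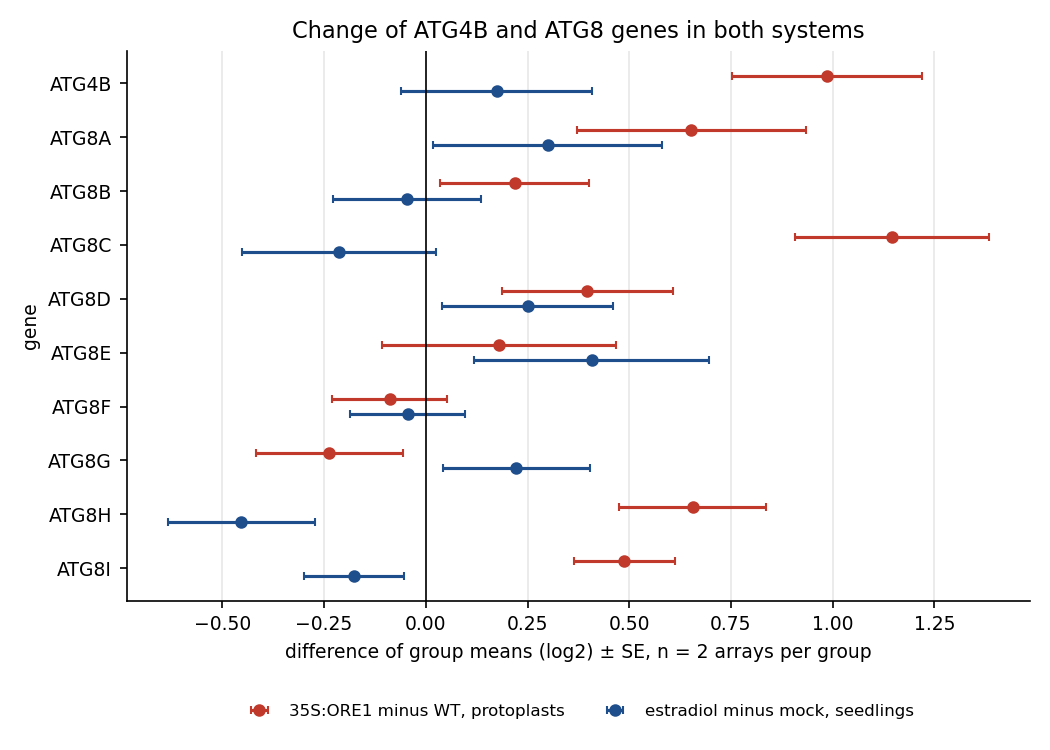
Difference of group means on the log2 scale with its SE (n = 2 arrays per group, limma) for ATG4B and the ATG8 genes, with 35S:ORE1 minus WT protoplasts in red and estradiol minus mock seedlings in blue. ATG8C (1.15) and ATG4B (0.99) lie farthest to the right in protoplasts, whereas the seedling values run from -0.45 to 0.41.

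Of 34 other autophagy genes looked for, 9 have a listed probe set, and 2 of these rose in protoplasts, where 3.00% of all tested probe sets were called higher. Both belong to the kinase complex that starts autophagy. The other measured ATG1 and ATG13 genes, ATG1B, ATG1C, ATG1T and ATG13B, were not called. Of these, ATG1C had exactly equal values within both protoplast pairs, and ATG1T and ATG13B lay at the floor, so a change could hardly be seen. ATG1A (AT3G61960), which encodes a form of the ATG1 kinase, gave 9.82 and 10.37 with 35S:ORE1 and 7.99 and 8.21 in WT. It rose by 2.00 ± 0.25 (SE), or 3.99-fold (limma adjusted p = 0.00966). The call was lost without WT array 1 (adjusted p = 0.0585) and when protoplasts were fitted without the seedlings (0.152).

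ATG101 (AT5G66930), which encodes a partner of ATG13 in that complex, gave 9.49 and 10.17 against 8.35 and 8.61 and rose by 1.35 ± 0.25 (SE, adjusted p = 0.0428). Its call was made under 5 of 15 alternatives (adjusted p 0.0176 to 0.322 over all of them). It was lost after median centring (0.0563), without a filter on low values (0.0612), when protoplasts were fitted without the seedlings, and without each array in turn other than 35S:ORE1 array 1. In seedlings ATG1A differed by 0.17 ± 0.25 (SE) and ATG101 by 0.02 ± 0.25 (SE), and the difference between the systems did not pass for either (adjusted p = 0.0912 and 0.230). With the block that of ATG1A did (0.0277), under the limits given above for that comparison.

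The 2 measured genes of the lipid coupling machinery beside ATG8 had higher means with 35S:ORE1. ATG3, whose product hands ATG8 to the lipid, gave 9.06 and 8.84 against 8.70 and 8.42, a difference of 0.39 ± 0.16 (SE, adjusted p = 0.419). ATG16 gave 9.53 and 9.93 against 9.16 and 9.43, or 0.43 ± 0.22 (SE, adjusted p = 0.581, and 0.0455 with the block). Of the rest, ATG1B differed by 0.31 and RAPTOR1B, a subunit gene of the TOR complex that restrains autophagy, by 0.24. Array 1 of both groups held the same value for RAPTOR1B. ATG1C had exactly equal values in both pairs on both of its probe sets (6.25 and 6.28 on the one with the higher mean), and ATG1T and ATG13B lay at the floor on all protoplast arrays. In seedlings none of the 9 passed (adjusted p = 1), and the differences ran from -0.36 to 0.21.

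**Figure D4:**
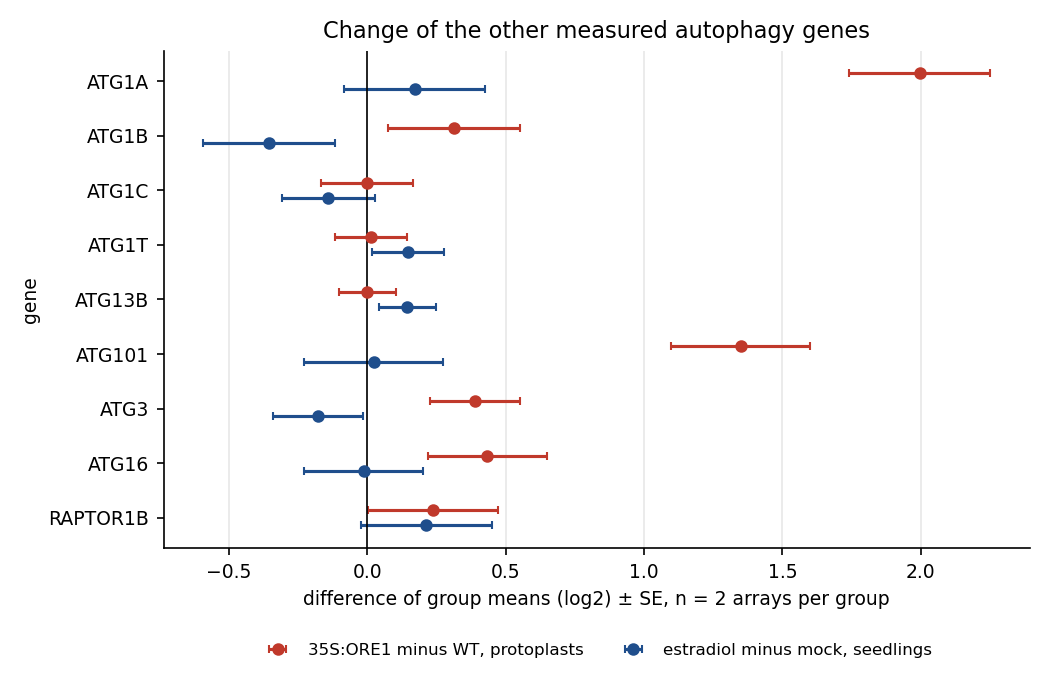
Difference of group means on the log2 scale with its SE (n = 2 arrays per group, limma) for the 9 other autophagy genes with a listed probe set, for protoplasts in red and seedlings in blue. ATG1A (2.00) and ATG101 (1.35) stand apart from the others in protoplasts, and the blue points all lie between -0.36 and 0.21. The red points of ATG1C, ATG1T and ATG13B rest on exactly equal or floor values, so they do not measure an absence of change.

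Among 9717 tested probe sets with a single listed gene, those most like ATG8C were sought by the root mean square difference of the log2 values on the 8 arrays, each taken relative to the mean of its system. The 5 nearest were AT5G51390 (0.112), AT4G27280 (0.118), ATG101 (0.122), AT2G27080 (0.135) and AT1G27070 (0.143), where the root mean square of ATG8C itself is 0.454. They were chosen for this likeness, and their changes are given as a description. In protoplasts their means were higher with 35S:ORE1 by 1.24, 0.87, 1.35, 1.05 and 0.82, and in seedlings they differed by -0.10, -0.12, 0.02, -0.15 and -0.13. These genes share the arrays, and with them the array numbers, with ATG8C.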

How the data were processed

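The deposited table gives log2 expression values per probe set for 8 arrays, and per the submitters' processing notes the authors used GCRMA and RMA, with no version and no statement of which arrays each served. Background correction and normalization can thus differ between the systems. RNA was extracted with a plant column kit and hybridised by a service provider, per the labels. Probe sets were named through GEO's platform table and the locus tags of the TAIR10.1 gene table, through which all 10 members were matched. As the files name no genome build, no coordinates are given.

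Control probe sets were dropped, and the 17388 others with a log2 value of 5 or more on 2 or more arrays entered limma 3.58.1 in R 4.3.3 (lmFit, eBayes, two-sided, Benjamini-Hochberg adjusted p over all 17388, threshold 0.05). The 4 group means were fitted in 1 model with no block (4 residual degrees of freedom, and 2.25 from the prior). Both contrasts share the SE of a probe set. The block fit has the array number as a term within each system and leaves 2. Same-numbered arrays deviated together (correlation of deviations 0.787 in protoplasts and 0.656 in seedlings over 17388 probe sets). The protoplast value includes probe sets with exactly equal values in both pairs, whose deviations are identical by construction. No value without them was computed. No exact permutation test was run, as its smallest two-sided p with 2 arrays a group is 0.333. The code was tested on simulated data.

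The members and lists were chosen with earlier results of these data known. All members and all listed autophagy genes with a probe set are named. For ATG1C the probe set with the higher mean stands for the gene. The genes most like a member were sought for the one with the largest absolute moderated t in protoplasts, ATG8C. Alternatives were the block, quantile normalization within each system, median centring, no filter, a filter at log2 6, a trend in the spread, each system alone, other reference sets for the percentiles, and each array left out.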

Additional observations from a re-analysis of the deposited data

How the results depend on the processing

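The median protoplast change of the 10 genes, 0.44, was 0.27 after median centring and 0.27 to 0.58 without 1 array, and the median seedling change, 0.06, was -0.039 to 0.17 without 1 array, being negative without estradiol array 2. The count of members called in protoplasts, 0, was 3 with the replicate block, 1 after quantile normalization, 1 at the filter of log2 6, 1 with a trend and 0 to 1 without 1 array, and in seedlings it was 0 throughout. The median percentile gap between WT protoplasts and mock seedlings, 13.6 points, was 11.5 among probe sets with 1 listed gene, 17.8 among tested probe sets and 11.6 to 15.6 without 1 array, and all 10 genes stood higher in protoplasts in each of these 3 reference sets. Changes near 0 turned sign without 1 array: ATG8F ranged from -0.20 to 0.026 in protoplasts and from -0.17 to 0.077 in seedlings, and ATG8B from -0.23 to 0.13 in seedlings. So did the differences of changes of ATG8D (-0.43 to 0.14), ATG8E (-0.16 to 0.62) and ATG8F (-0.076 to 0.17), the last being -0.038 after quantile normalization. The cause was not tested. Over all probe sets the protoplast comparison called 522 higher and 134 lower, against 438 and 311 after median centring, which moved the median change to -0.17, and 820 and 523 with the replicate block, 348 and 28 without WT array 2 and 135 and 10 when protoplasts were fitted without the seedlings. None of the 10 genes was at the floor of the protoplast arrays, background on the seedling arrays was not assessed, and the floor leaves the protoplast changes of ATG1T and ATG13B unmeasured.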

Other observations

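In seedlings some members differed more between array numbers than between treatments. ATG8A was higher on array 2 than on array 1 by 0.59 with estradiol and by 0.44 with mock treatment, and ATG8E by 0.78 and 0.45, against 0.30 and 0.41 between the treatments. In protoplasts ATG4B went the other way, array 1 being higher than array 2 by 0.55 with 35S:ORE1 and by 0.49 in WT.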
